A study of Mus musculus with 6 samples.

Results

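The genes described here encode 9 ion channels, or channel subunits, that have been linked to the sensing of mechanical force: Piezo1, Piezo2, Trpv4, Trpm7, Pkd1, Pkd2, Kcnk2, Tmem63a and Tmem63b. They were grouped by known function, but with earlier results of these data known. All 9 symbols were found among the 50686 gene identifiers of the count files. The cells were mouse iPSCs reprogrammed from gingival fibroblasts, grown as embryoid bodies, given retinoic acid, attached to gelatin-coated plates and kept in serum-free medium, and all of this was shared by both groups. The ICF group (3 samples) received intermittent compressive force of 1.5 g per square centimetre at 0.23 Hz for 24 h, and the Control group (3 samples) stayed unloaded. No genotype, strain or animal age was given in the labels, and all samples derive from reprogrammed cells of 1 tissue, the gingiva. RNA was sequenced from whole constructs, so fewer cells of a type and less RNA per cell cannot be told apart.

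Mechanically gated channels open when the membrane is stretched, sheared or indented, and the ions that flow through them turn force into an electrical or calcium signal. PIEZO proteins are large trimeric cation channels, of which PIEZO1 is known from endothelium, red cells and epithelia and PIEZO2 from touch and position sense. TRPV4 and TRPM7 belong to the transient receptor potential family, and TRPM7 carries a kinase domain on the same chain and conducts magnesium as well as calcium. Polycystin-1 and polycystin-2, encoded by Pkd1 and Pkd2, meet in the primary cilium and are the proteins lost in polycystic kidney disease. Kcnk2 encodes TREK-1, a potassium channel opened by stretch, and the TMEM63 proteins are the vertebrate relatives of the plant OSCA channels that respond to osmotic stress.

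The deposited counts on genes summed to between 28711166 and 34194413 per sample. ICF replicate 3 stood apart from the rest, because 89.0% of its nonzero counts could be divided by 4 and 20.3% to 21.5% of those of any other sample. It also had fewer genes with a count, 20802 against 24340 to 24889, so its summed counts may overstate its depth. Of its counts for the 9 channel genes, 7 could be divided by 4. Reads outside annotated genes made up 6.24% and 6.04% of the records in Control and ICF replicate 3, against 4.09% to 4.52% in the other samples. Each group holds samples numbered as donors 1 to 3 by the labels, and this number is called the replicate here. All 8 pluripotency markers were expressed, and their summed level overlapped between the groups, at 2856 to 3345 CPM in Control and 2710 to 3073 CPM with ICF. Among 10 mesenchymal markers Pdgfra reached 178 CPM in Control but Postn only 0.284 CPM, and Lum was too low to test. The summed mesenchymal level was 226 to 255 CPM in Control and 260 to 280 CPM with ICF, without overlap. Of 9 tested markers 2, Col1a1 and Col3a1, passed the threshold as higher. Over all genes tested, 3.47% passed as higher and 4.38% as lower. Log2 fold changes of the 9 markers ran from 0.03 (Pdgfra) to 0.75 (Col1a1). The part of these markers in the channel results was not tested. The groups overlapped in the summed markers of neural, endoderm, endothelial and blood cells. In Control the endoderm markers summed to 416 to 430 CPM, above the mesenchymal ones, and the neural markers to 145 to 166 CPM. Endothelial and blood markers summed to 75.6 to 91.5 and 17.1 to 18.6 CPM in Control. Single markers of these lists also passed the threshold, beside the same shares over all genes tested. Of 8 neural markers Neurod1 was higher with ICF (log2 fold change 1.35) and Elavl3 lower (-1.32), and of 6 endoderm markers Sox17 was lower (-0.34). Their part in the channel results was not tested either.

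All 9 channel genes had reads in all 6 samples and passed the filter on low counts, which kept 16729 genes, but their levels spanned more than 2 orders of magnitude. Levels are compared between genes as CPM per kb of exon, where CPM are counts scaled to library size after TMM normalization and the exon length is that of all annotated exons of the gene together. In Control the highest was Tmem63b at 17.9 ± 0.681 CPM per kb (SD, n = 3), followed by Piezo1 at 14.8 ± 0.34 CPM per kb (SD, n = 3) and Trpm7 at 9.93 ± 1.36 CPM per kb (SD, n = 3). These 3 genes stood at the 80.3, 77.5 and 68.7 percentile of the tested genes by mean level over the 6 samples, so they were well expressed. Pkd2 followed at 4.83 ± 0.792 CPM per kb, and Tmem63a and Pkd1 lay next to each other at 2.91 ± 0.136 and 2.65 ± 0.0847 CPM per kb (SD, n = 3 each). Trpv4 was low, at 0.512 ± 0.068 CPM per kb, and Kcnk2 and Piezo2 were near the bottom of what was tested, at 0.104 ± 0.0257 and 0.0701 ± 0.0225 CPM per kb (SD, n = 3 each). Their mean levels lay at the 4.6 and 1.6 percentile. In Control, 7 of the 8 neighbouring pairs in this order did not overlap in their samples, and Kcnk2 and Piezo2 did. With ICF the order of the 9 genes was the same, and the ranges of Tmem63a and Pkd1 then overlapped as well. With the length of the longest transcript in place of all exons the order also stayed. Piezo1 and Trpm7 then overlapped in both groups, and Trpv4 and Kcnk2 overlapped with ICF.

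**Figure D1:**
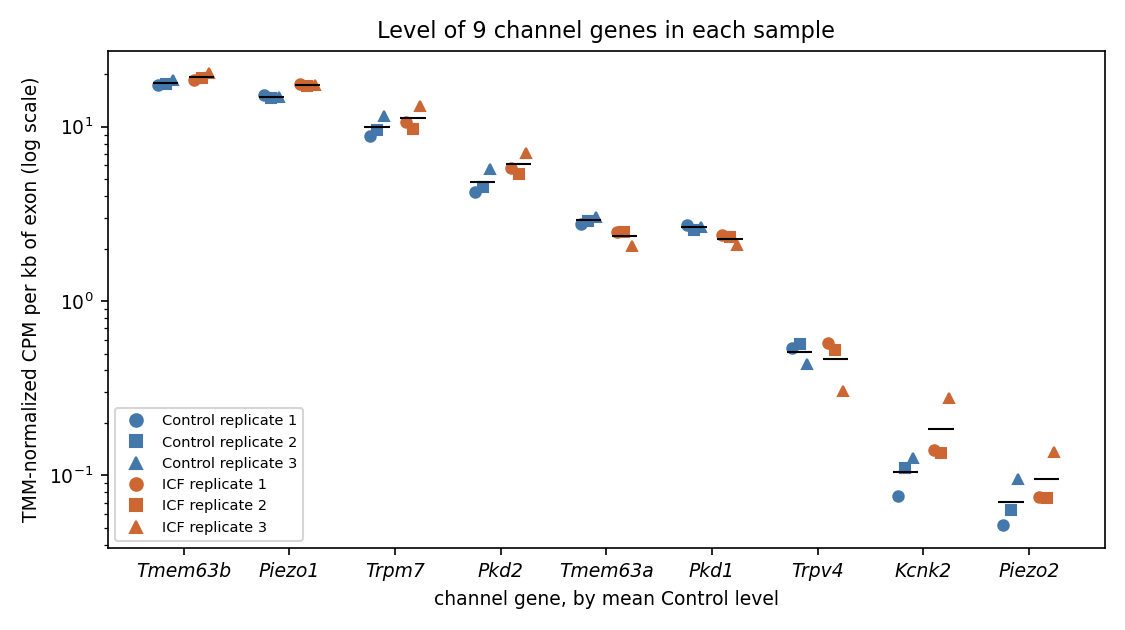
Level of each channel gene in each of the 6 samples, as TMM-normalized CPM per kb of exon on a log axis. Blue symbols are Control, orange symbols ICF, the marker shape gives the replicate and the black line the group mean. Tmem63b, Piezo1 and Trpm7 lie at 8.82 CPM per kb or above in every sample, whereas Kcnk2 and Piezo2 stay at 0.279 CPM per kb or below.

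The question of the comparison was whether 24 h of ICF changed the mRNA of these channels. In edgeR's quasi-likelihood test without a replicate block, 1 of the 9 genes, Piezo1, was higher with ICF at an adjusted p under 0.05 and 0 were lower. Over all genes tested, 7.85% passed in either direction, 3.47% as higher and 4.38% as lower. At an unadjusted p under 0.05 there were 4 of 9, beside 4277 of the 16729 genes tested. DESeq2 also called Piezo1 alone, where it called 13.2% of the genes it tested, 5.95% as higher and 7.26% as lower. With the donor number as a replicate block, Piezo1, Trpm7 and Pkd2 were higher and Pkd1 and Tmem63a lower, 5 of 9, where 29.9% of all genes passed that test, 14.6% as higher and 15.3% as lower. The median log2 fold change of the 9 genes was 0.17, against 0.003 over all genes tested. In 4 of the 9 genes, namely Piezo1, Pkd1, Kcnk2 and Tmem63a, every ICF sample lay on one side of every Control sample, and this held for 31.4% of all genes tested, 15.6% as higher and 15.7% as lower. A test on 3 samples against 3 that permutes the samples cannot give a p under 0.1, so the values per gene below rest on the fits across all genes.

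The upstream sequence of Piezo1 is shown because it was the only channel gene past the threshold in the main test, and those of Pkd1 and Pkd2 because these partners lay on opposite sides of 0. The sequences are RefSeq promoter windows on GRCm38.p6, printed 5′ to 3′ on the strand of the gene and cut where the first annotated exon starts. Capitals mark GC boxes, the letters GGGCGG or their reverse complement CCGCCC.
Piezo1, chr8:122551330-122551579, reverse strand: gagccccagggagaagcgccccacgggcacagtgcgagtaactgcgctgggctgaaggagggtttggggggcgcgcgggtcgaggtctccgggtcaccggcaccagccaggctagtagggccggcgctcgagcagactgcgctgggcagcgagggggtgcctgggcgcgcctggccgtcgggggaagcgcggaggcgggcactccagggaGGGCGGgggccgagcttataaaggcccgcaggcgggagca
Pkd1, chr17:24549700-24549833, forward strand: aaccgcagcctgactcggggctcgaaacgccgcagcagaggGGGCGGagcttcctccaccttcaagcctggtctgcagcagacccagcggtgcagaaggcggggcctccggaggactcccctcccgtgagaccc
Pkd2, chr5:104459207-104459449, forward strand: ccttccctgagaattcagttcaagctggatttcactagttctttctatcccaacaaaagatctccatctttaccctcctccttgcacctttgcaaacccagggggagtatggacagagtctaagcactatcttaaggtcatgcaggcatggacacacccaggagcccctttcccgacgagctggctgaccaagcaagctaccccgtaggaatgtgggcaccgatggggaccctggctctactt
The Piezo1 stretch is 74.0% G or C and holds 26 CpG dinucleotides in 250 bases, that of Pkd1 is 69.4% with 10 in 134 bases, and that of Pkd2 is 52.3% with 4 in 243 bases. Windows of 300 bases around the start were found for 8 of the 9 genes. These were 11 windows, with 4 of the 11 belonging to Kcnk2. On either strand, GGGCGG was present in 6 of the 11, each of a different gene, and in 35.7% of all 32851 windows. TATAAA was in 1 of the 11 (Piezo1) against 13.6%, and CCAAT in 2 (Tmem63a and Kcnk2) against 37.4%. The whole windows of Piezo1, Pkd1 and Pkd2 held 1, 5 and 0 GC boxes, so the cut stretch of Pkd1 shows fewer than its window. None of these motifs contains another, and a match describes letters only.

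Piezo1 lies on the reverse strand of chromosome 8, from 122481698 to 122551329 in GRCm38. Its level was 151, 145 and 146 CPM in Control replicates 1, 2 and 3 and 174, 169 and 173 CPM in ICF replicates 1, 2 and 3. All ICF samples were above all Control samples, and the spread within each group was small beside the gap. The means were 147 ± 3.38 CPM (SD, n = 3) in Control and 172 ± 2.58 CPM (SD, n = 3) with ICF. The corresponding log2 fold change was 0.23 ± 0.02 (SE), with an adjusted p of 0.0379 from edgeR. This is a ratio of 1.17, a small change measured on a mean of 4964 counts. The replicate block gave an adjusted p of 0.000619, and without ICF replicate 3 the log2 fold change stayed at 0.23 with an adjusted p of 0.0446 from edgeR. The call was lost when Control replicate 1, 2 or 3 or ICF replicate 1 or 2 was left out, with adjusted p-values of 0.0551 to 0.185 from edgeR and log2 fold changes of 0.21 to 0.24. It was also lost with the looser filter on low counts (adjusted p = 0.0568, edgeR). Of the exon bases of Piezo1, 24.6% lie opposite exons of Ctu2, a gene for a tRNA-modifying enzyme on the other strand. The libraries were strand-specific, but the strand setting of the counting was not given in the sources used here. Ctu2 was at 49.7 CPM in Control and 44.6 CPM with ICF (adjusted p = 0.391, edgeR).

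Piezo2 (chromosome 18, 63010213 to 63387183, reverse strand) was nearly silent. It had 26, 34 and 47 counts in Control replicates 1, 2 and 3 and 45, 42 and 68 in ICF replicates 1, 2 and 3. The groups overlapped, and replicate 3 was the highest sample of each group. The log2 fold change was 0.44 ± 0.39 (SE, n = 3 per group, adjusted p = 0.448, edgeR), and it was 0.10 without ICF replicate 3. If the counts of that sample that come in steps of 4 stand for fewer reads, its 68 counts overstate the reads behind them, and dividing its counts by 4 gave a log2 fold change of 0.27. A count of 26 has an exact Poisson interval of 17 to 38.1 at the 95% level, which covers counting error only. Per kb of exon, Piezo1 exceeded Piezo2 by 154 to 293 times in the Control samples and by 127 to 232 times in the ICF samples. These ranges overlapped, with a difference of -0.2 on the log2 scale (p = 0.7 in an exact permutation test, two-sided).

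**Figure D2:**
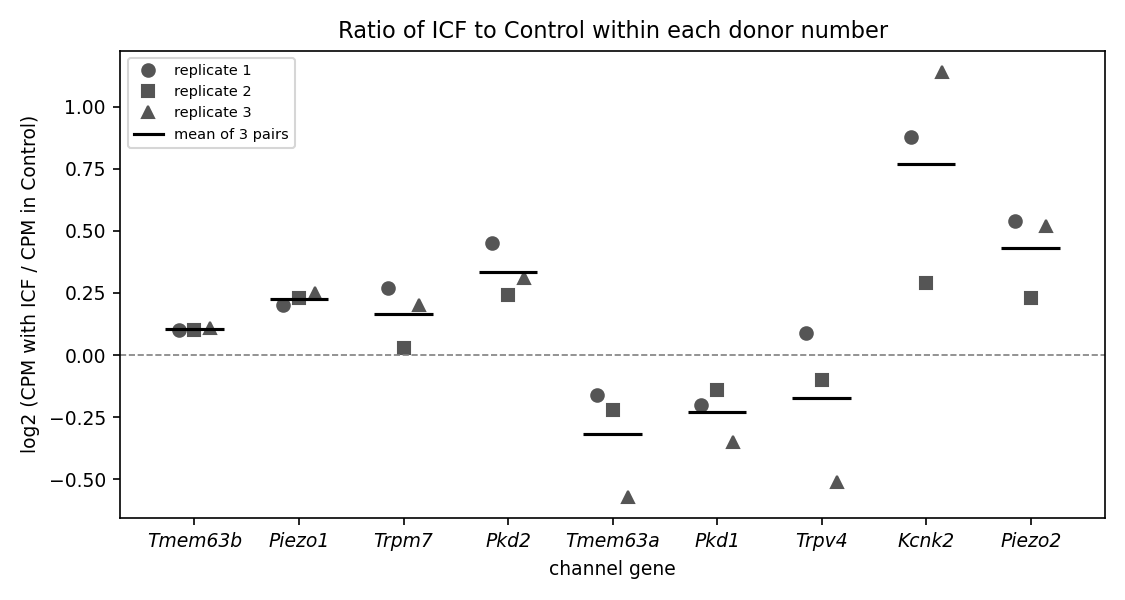
Ratio of ICF to Control within each donor number, as log2 of the CPM ratio, for each channel gene in order of its Control level. Symbols are the 3 pairs and the black line is their mean. Piezo1 (0.20 to 0.25) and Tmem63b (0.10 to 0.11) hardly vary between pairs, whereas Kcnk2 spans 0.29 to 1.14.

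Of the TRP channels, Trpm7 was abundant and Trpv4 scarce. Trpm7 (chromosome 2, 126791565 to 126876230, reverse strand) was at 99.8, 108 and 130 CPM in Control replicates 1, 2 and 3 and at 120, 110 and 148 CPM in ICF replicates 1, 2 and 3. The groups overlapped, replicate 3 was the highest sample of each, and each ICF sample was above the Control sample of its own number. The log2 fold change was 0.17 ± 0.17 (SE, adjusted p = 0.457, edgeR). Without a block it was 0.04 when ICF replicate 3 was left out (adjusted p = 0.856, edgeR) and 0.28 when Control replicate 3 was left out (0.171). With the replicate block it was 0.16 and the adjusted p was 0.0194 (edgeR). That call was lost with offsets for GC content and exon length in the blocked test, where the log2 fold change was 0.08 (adjusted p = 0.148, edgeR), and in the blocked test without ICF replicate 3 (adjusted p = 0.0748, edgeR). DESeq2 with the block also missed the threshold (adjusted p = 0.0653). With replicate 3 as a batch Trpm7 passed (adjusted p = 0.0103, edgeR). The Trpm7 transcript was the poorest in G and C of the 9, at 40.1%.

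Trpv4 (chromosome 5, 114622152 to 114658421, reverse strand), a calcium-permeable channel opened by swelling and warmth, had 64, 72 and 51 counts in Control replicates 1, 2 and 3 and 81, 71 and 36 in ICF replicates 1, 2 and 3. Here replicate 3 was the lowest sample of each group, and the groups overlapped. The log2 fold change was -0.12 ± 0.31 (SE, adjusted p = 0.802, edgeR). Its sign was not stable: without ICF replicate 3 it was 0.11 (adjusted p = 0.761, edgeR) and with the counts of that sample divided by 4 it was -0.01, so no direction is given for Trpv4.

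The polycystins lay on opposite sides of 0. Pkd1 (chromosome 17, 24549834 to 24596508, forward strand) was at 47.5, 44.6 and 46.3 CPM in Control replicates 1, 2 and 3 and at 41.5, 40.6 and 36.5 CPM in ICF replicates 1, 2 and 3. Every ICF sample was below every Control sample. The means were 46.1 ± 1.47 CPM (SD, n = 3) in Control and 39.5 ± 2.67 CPM (SD, n = 3) with ICF. The corresponding log2 fold change was -0.22 ± 0.06 (SE, adjusted p = 0.0966, edgeR). This did not pass the threshold, whereas the same size of change passed with the replicate block (adjusted p = 0.00726, edgeR). Without ICF replicate 3 the blocked test gave -0.16 and did not pass (adjusted p = 0.115, edgeR). In tests without a block Pkd1 passed with offsets for GC content and length (adjusted p = 0.0446, edgeR) and without replicate 3 of both groups (0.043). Exons of Pkd1 overlap those of Tsc2, the tuberin gene, on the opposite strand over 3.98% of the Pkd1 exon bases. Tsc2 was at 118 CPM in both groups.

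Pkd2 (chromosome 5, 104459450 to 104505819, forward strand) was at 43.1, 46.0 and 58.3 CPM in Control replicates 1, 2 and 3 and at 58.8, 54.3 and 72.0 CPM in ICF replicates 1, 2 and 3. Control replicate 3 reached into the ICF range, and each ICF sample exceeded the Control sample of its number. The means were 49.2 ± 8.05 CPM (SD, n = 3) and 61.7 ± 9.22 CPM (SD, n = 3). The corresponding log2 fold change was 0.33 ± 0.18 (SE, adjusted p = 0.167, edgeR). The replicate block gave an adjusted p of 6.7e-05, and in the blocked test without ICF replicate 3 it was 4.49e-05, with a log2 fold change of 0.35 (edgeR). DESeq2 with the block gave 0.000475, so among the blocked tests run Pkd2 passed each time. Without a block it also passed with the looser filter on low counts (adjusted p = 0.0422, edgeR), without Control replicate 3 (0.0475) and without replicate 3 of both groups (0.000317). It did not pass without a block when any other sample was left out: the log2 fold change was then 0.21 without ICF replicate 3 (adjusted p = 0.308, edgeR) and 0.24 without Control replicate 1 (0.448), against 0.47 without Control replicate 3.

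The ratio of the polycystin genes within a sample was compared as well. It joins genes already seen on opposite sides of 0, and the share of other gene pairs that separate was not computed. Pkd2 exceeded Pkd1 per kb of exon by 1.55, 1.77 and 2.16 times in Control replicates 1, 2 and 3 and by 2.43, 2.29 and 3.38 times in ICF replicates 1, 2 and 3. The groups did not overlap, and the difference was 0.56 on the log2 scale (p = 0.1 in an exact permutation test, two-sided, which cannot give less with these numbers).

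Kcnk2 (chromosome 1, 189207930 to 189402273, reverse strand) had the largest fitted change of the 9 genes and some of the lowest counts. It had 11, 17 and 18 counts in Control replicates 1, 2 and 3 and 24, 22 and 40 in ICF replicates 1, 2 and 3. In CPM every ICF sample was above every Control sample, at 0.376, 0.543 and 0.626 CPM in Control and 0.691, 0.666 and 1.38 CPM with ICF. The log2 fold change was 0.80 ± 0.41 (SE, adjusted p = 0.225, edgeR), and it missed the threshold with the block as well (adjusted p = 0.0848, edgeR). The value leaned on ICF replicate 3: the log2 fold change was 0.40 without that sample (adjusted p = 0.457, edgeR) and 0.58 when its counts were divided by 4. Counts of 11 and 24 have exact Poisson intervals of 5.49 to 19.7 and 15.4 to 35.7, which overlap and cover counting error only. An antisense gene opposite Kcnk2 exons, A430027H14Rik, had 1 count in Control replicate 2 and 0 in the other samples.

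The TMEM63 genes, which encode channels opened by membrane stretch, also differed from each other. Tmem63a (chromosome 1, 180942344 to 180975112, forward strand) was at 12.5, 13 and 13.7 CPM in Control replicates 1, 2 and 3 and at 11.2, 11.2 and 9.25 CPM in ICF replicates 1, 2 and 3. All ICF samples were below all Control samples. The means were 13.1 ± 0.61 CPM (SD, n = 3) and 10.5 ± 1.11 CPM (SD, n = 3). The corresponding log2 fold change was -0.31 ± 0.10 (SE, adjusted p = 0.117, edgeR). The replicate block gave an adjusted p of 0.0161 (edgeR), but in the blocked test without ICF replicate 3 the log2 fold change was -0.18 and the call was lost (adjusted p = 0.197, edgeR). DESeq2 with the block also did not call it (adjusted p = 0.123). Tmem63a did pass in the blocked test with offsets for GC content and length (adjusted p = 0.0288, edgeR) and with replicate 3 as a batch (0.0105). The antisense gene 2210411M09Rik, opposite 157 of its exon bases, had 0 counts in all samples.

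Tmem63b (chromosome 17, 45660171 to 45686905, reverse strand) was the most abundant channel gene per length. It was at 88.2, 90.0 and 94.9 CPM in Control replicates 1, 2 and 3 and at 94.4, 96.7 and 103 CPM in ICF replicates 1, 2 and 3. The groups overlapped by a small margin, and the ratio was nearly the same in all 3 pairs. The log2 fold change was 0.10 ± 0.05 (SE, adjusted p = 0.33, edgeR, and 0.132 with the block). It passed only in the blocked test with offsets for GC content and length, at 0.13 (adjusted p = 0.026, edgeR). Mrpl14, a mitochondrial ribosomal protein gene on the other strand, shares 106 exon bases with Tmem63b. It was at 33.3 CPM in Control and 27.7 CPM with ICF (adjusted p = 0.289, edgeR, and 0.0043 with the block), and its groups overlapped. Tmem63b exceeded Tmem63a per kb of exon by 6.23, 6.08 and 6.10 times in Control replicates 1, 2 and 3 and by 7.44, 7.63 and 9.78 times in ICF replicates 1, 2 and 3. The ratio was thus tight in Control and higher in every ICF sample. The difference was 0.42 on the log2 scale (p = 0.1 in an exact permutation test, two-sided, again its minimum). As with the polycystins, these genes lay on opposite sides of 0, and no share over other gene pairs was computed.

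**Figure D3:**
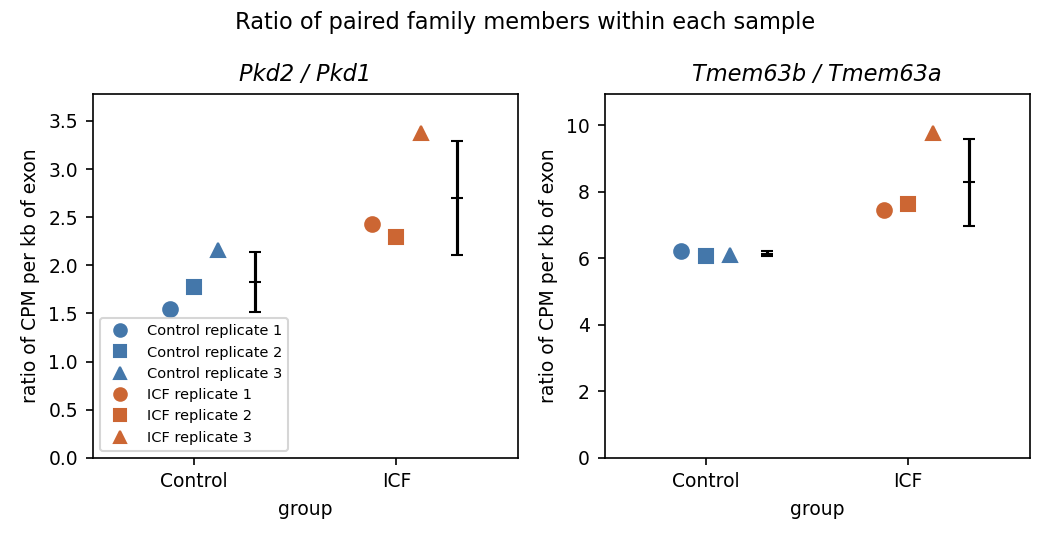
Ratio of Pkd2 to Pkd1 (left) and of Tmem63b to Tmem63a (right) within each sample, from CPM per kb of exon. Symbols are samples by group and replicate, and the black dash and bar are the mean and SD of 3 samples. In both panels every ICF sample lies above every Control sample, and ICF replicate 3 is the highest. The ratio of Piezo1 to Piezo2, whose groups overlapped, is not shown.

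Across the tests run, direction was steadier than the calls. These tests reuse the same 6 samples or most of them, so a kept sign is not independent evidence of direction. The fitted value of Trpm7, for example, went down to 0.04. Piezo1, Piezo2, Trpm7, Pkd2, Kcnk2 and Tmem63b kept a positive log2 fold change, and Pkd1 and Tmem63a a negative one, in the main test and all 18 alternatives. The fitted values of Piezo1 spanned 0.21 to 0.25 and those of Pkd1 -0.26 to -0.16. Those of Piezo2 spanned 0.10 to 0.71 and those of Kcnk2 0.40 to 0.99, so the rarest genes had the least certain size. Piezo2 and Kcnk2 passed the threshold in none of the edgeR tests run, and neither did Trpv4.

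**Figure D4:**
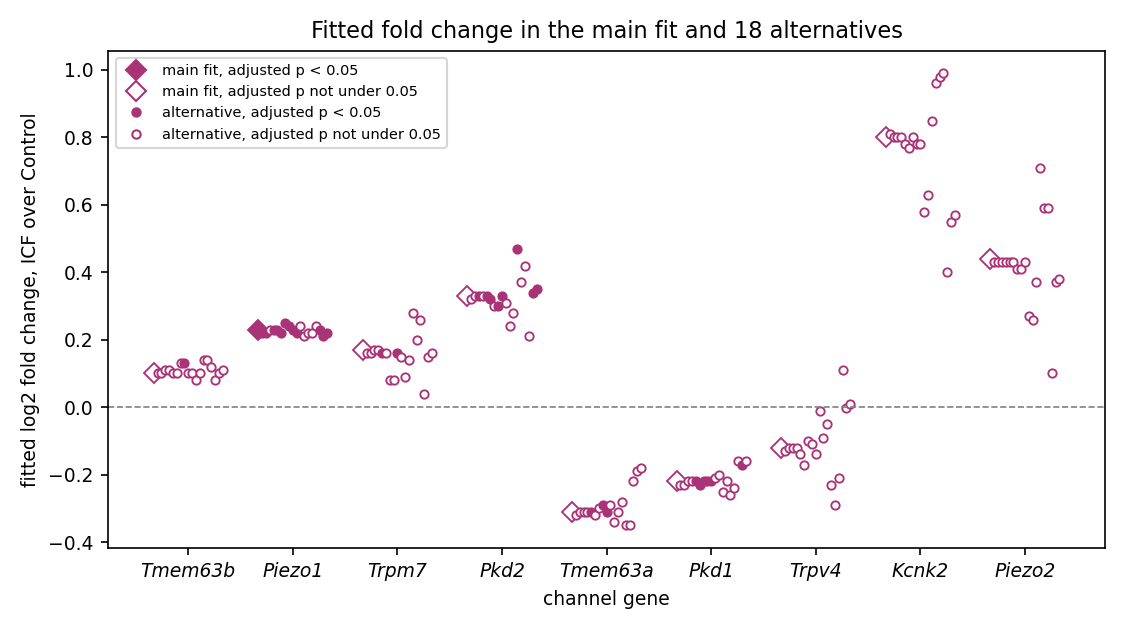
Fitted log2 fold change of ICF over Control for each channel gene in the main test (diamond) and 18 alternatives (circles), with filled symbols where the adjusted p was under 0.05. Piezo1 stays between 0.21 and 0.25 and Pkd2 between 0.21 and 0.47, while Trpv4 crosses 0.

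The genes whose profile over the 6 samples lay nearest to each channel gene were taken from 11914 genes averaging 100 counts or more. The measure was the root mean square difference of log2(CPM + 0.01), each gene being centred on its own mean. For Piezo1 the nearest was Oxct1 (0.022), for Trpm7 Exoc5 (0.018), for Pkd1 Bag2 (0.019) and for Pkd2 Zfp942 (0.016). For Tmem63a it was Lmln (0.031) and for Tmem63b Trim26 (0.014). The rare genes had more distant neighbours, Lmo7 for Piezo2 (0.072), Rec8 for Trpv4 (0.055) and Il1rl1 for Kcnk2 (0.137). Their own root mean square spread was also larger, at 0.441, 0.317 and 0.552, against 0.071 to 0.244 for the other channel genes. No neighbour was itself a channel gene of this group, but Piezo2, Trpv4 and Kcnk2 averaged under 100 counts and could not be neighbours. The other channel genes were few among 11914, so this does not show whether the channels move together.

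Around these channels, 132 related genes were listed by function, of which 97 were tested. In edgeR's test without a block 1 was higher and 4 were lower, with a median log2 fold change of -0.017, against 7.85% of all genes called. With the block 16 were higher and 16 lower, against 29.9% of all genes. The 5 called genes were Itpr3, Itpr1, Trpc1, Trpv3 and Rcan1.

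Of 11 tested TRP channels other than Trpv4 and Trpm7, 0 were higher and 2 lower, against 3.47% and 4.38% of all genes tested. With the block 2 were higher and 3 lower, against 14.6% and 15.3%. Trpc1, which encodes a subunit of cation channels of the plasma membrane, fell from 4.09 ± 0.19 CPM (SD, n = 3) to 2.53 ± 0.44 CPM (SD, n = 3), or -0.69 as log2 fold change (adjusted p = 0.0434, edgeR). Trpv3, a warmth-sensing channel of skin, fell from 1.59 ± 0.102 to 0.64 ± 0.195 CPM (SD, n = 3 each), or -1.30 as log2 fold change (adjusted p = 0.0243, edgeR). Mcoln1, a lysosomal calcium channel, was the most abundant of the list per length and stood at 65.9 CPM in Control and 66.4 CPM with ICF. The next, Trpv2, stood at 5.24 and 8.11 CPM (adjusted p = 0.156, edgeR, and 0.000146 with the block).

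Among 32 tested genes of calcium entry, calcium stores and calcineurin signaling, 1 was higher and 2 were lower. With the block 9 were higher and 6 lower. Over all genes tested the shares were 3.47% higher and 4.38% lower, and with the block 14.6% and 15.3%. The 2 genes lower without the block encode receptors for inositol trisphosphate, which release calcium from the endoplasmic reticulum. Itpr3 fell from 60.1 ± 6.35 to 38.6 ± 3.79 CPM (SD, n = 3 each; log2 fold change -0.64, adjusted p = 0.0082, edgeR), and Itpr1 from 72.6 ± 4.25 to 56.7 ± 5.92 CPM (SD, n = 3 each; log2 fold change -0.36, adjusted p = 0.0431, edgeR). Rcan1, a calcineurin inhibitor, rose from 58.5 ± 2.97 to 71.2 ± 1.98 CPM (SD, n = 3 each; log2 fold change 0.29, adjusted p = 0.0325, edgeR). The calmodulin genes Calm2 and Calm3, the most abundant of the list per length, had log2 fold changes of -0.01 and -0.04.

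The other lists had 0 calls in edgeR's test without a block. Their counts at an unadjusted p under 0.05 stand beside 4277 of 16729 over all genes tested. Their counts with the block stand beside 14.6% higher and 15.3% lower over all genes tested. They held 15 tested mechano-associated channels (5 at an unadjusted p under 0.05, and 1 higher and 2 lower with the block), led in level by Tmem120a and Tmc6. They also held 8 polycystin relatives and cystoproteins (1 at an unadjusted p under 0.05, and 1 higher with the block), led by Ganab and Prkcsh, the subunits of glucosidase II. Of 9 PIEZO modulators 3 had an unadjusted p under 0.05, and 1 was higher and 3 lower with the block. The most abundant of these were Atp2a2, the SERCA2 calcium pump, at 337 ± 10.4 CPM in Control and 386 ± 9.87 CPM with ICF (SD, n = 3 each; adjusted p = 0.0681, edgeR), and Stoml2. Of 8 volume-regulated anion channel and Ttyh genes, led by Ttyh3 and Lrrc8d, 1 had an unadjusted p under 0.05 and 1 was higher with the block. Of 5 tested potassium channels of the Kcnk family other than Kcnk2, led by Kcnk5 and Kcnk1, 0 had an unadjusted p under 0.05, and 1 was higher and 1 lower with the block. Of 12 magnesium transport genes, led by Magt1 and Slc41a1, 2 had an unadjusted p under 0.05, and 2 were higher and 1 lower with the block.

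**Figure D5:**
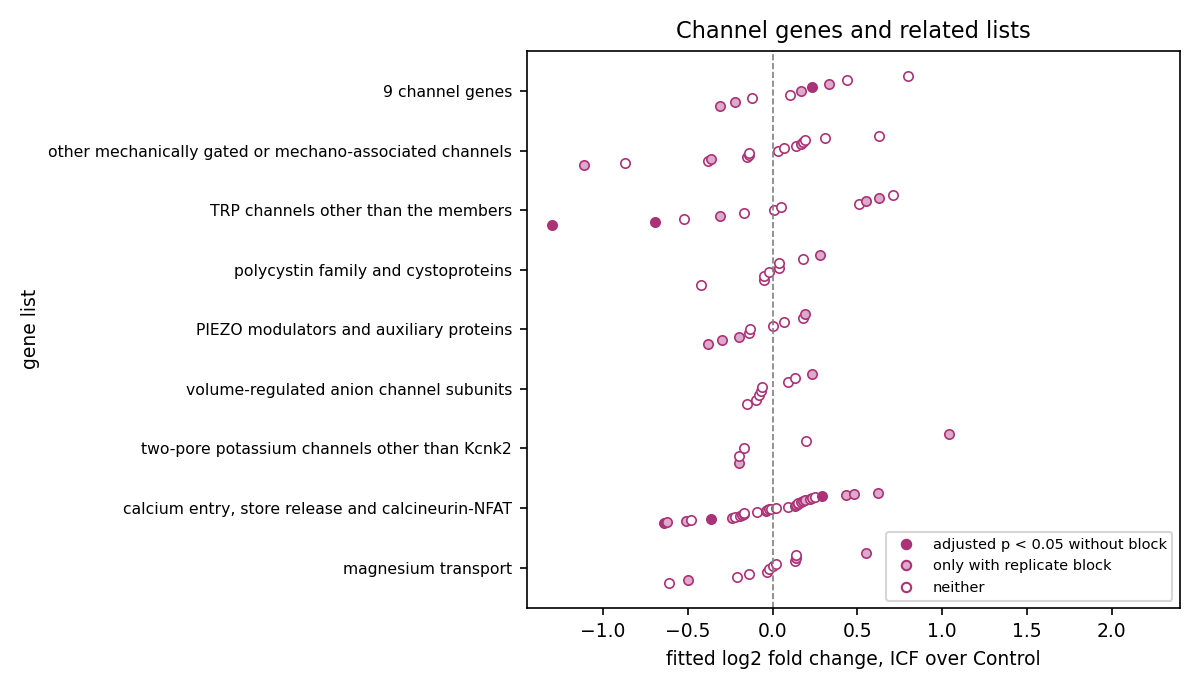
Fitted log2 fold change of ICF over Control for the tested genes of each list, the 9 channel genes at the top, from edgeR's test without a block. Dark circles passed the threshold without a block, pale circles only with the replicate block, and open circles in neither. Trpv3 lies farthest to the left at -1.30, and most genes lie within 0.5 of 0.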

How the data were processed

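RNA sequencing measured mRNA in 3 ICF and 3 Control samples. The authors used Trimmomatic for read filtering, HISAT2 for mapping and HTSeq for counting, and the deposited values are whole-number counts per gene without normalization. HTSeq drops reads that map to several places (29.5% to 31.3% of records). The submitters' processing notes name GRCm38 and hg38 as builds, and bcl2fastq 2.19. Tool versions of the mapping and counting were not given in the sources used here.

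Genes were named through GENCODE M21 on GRCm38, which held 50376 of 50686 identifiers. HTSeq's rows that name no gene were left out. ICF was compared with Control by edgeR 4.0.16 in R 4.3.3 (glmQLFit, glmQLFTest, TMM, filterByExpr with a minimum count of 10, Benjamini-Hochberg over 16729 genes, threshold 0.05), without a block. CPM used TMM library sizes, and standard errors came from the SDs of log2 CPM. Alternatives included DESeq2 1.42.0, RLE factors, looser and stricter filters (1 count in any sample, 10 in every sample), the replicate block, and offsets for GC content and length. Others took replicate 3 as a batch, divided the counts of ICF replicate 3 by 4, or left each sample out. Scripts were tested on simulated data. Same-numbered samples are labelled as the same donor, and over all genes the deviations of such samples from their group means had an r of 0.15, 0.2 and 0.38. Samples of different number had -0.34 to 0.26, with 0.26 and 0.17 between numbers 1 and 2, so only replicate 3 stood apart. The methods of the study name 3 independent experiments, without saying how cultures were divided among them. No 75-base stretch of the longest transcripts of the 9 genes occurred on the same strand in another gene.

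The 9 genes and the lists were chosen with earlier results of these data known. All 9 are named; of each list, the genes past the threshold (at most 4) and the 2 most abundant per length; and the nearest profile of each of the 9.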

Additional observations from a re-analysis of the deposited data

How the results depend on the processing

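Of 9 channel genes, 1 was higher and 0 lower without a block. With the replicate block these were 3 and 2, with DESeq2 and the block 2 and 1, with offsets for GC content and length 1 and 1, with offsets and the block 3 and 2, and with replicate 3 as a batch 3 and 2. Leaving out 1 sample gave 0 to 1 higher and 0 lower. With 2 alternatives chosen after seeing the data, without replicate 3 of both groups there were 2 and 1, and without ICF replicate 3 and with the block 2 and 0. The log2 fold change of Trpv4 turned from -0.12 to 0.11 without ICF replicate 3 and to 0.01 without it with the block, and leaving out 1 sample gave -0.29 to 0.11. No other channel gene turned.

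Related genes were 1 higher and 4 lower in the main test, 4 and 9 with DESeq2, 4 higher with the looser filter, 16 and 16 with the replicate block, 8 and 9 with DESeq2 and the block, 3 and 8 with offsets, 13 and 17 with offsets and the block, and 18 and 20 with replicate 3 as a batch. They were 14 and 18 without replicate 3 of both groups, 13 and 13 without ICF replicate 3 with the block, and 0 to 3 and 0 to 5 with 1 sample left out.

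All genes called were 580 higher and 733 lower in the main test, 877 higher with DESeq2, 2445 and 2561 with the replicate block, 1354 and 1666 with DESeq2 and the block, 1008 and 1176 with offsets, 2560 and 2770 with offsets and the block, and 2823 and 2876 with replicate 3 as a batch. They were 2466 and 2627 without replicate 3 of both groups, 2294 and 2237 without ICF replicate 3 with the block, and 85 to 724 and 215 to 928 with 1 sample left out. The lowest counts came without Control replicate 2 and the highest without Control replicate 3, and the cause of these differences was not tested. DESeq2 gave no adjusted p for Kcnk2. Kcnk2, Piezo2 and Trpv4 had the lowest mean counts of the channel genes, 22.0, 43.7 and 62.5, and Trpv3 passed the main test at 34.2.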
